A study of Mus musculus with 8 samples.

Results

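Messenger RNA of the cyclins and kinases that drive the meiotic divisions was followed through the first wave of spermatogenesis in mouse testis. The set holds 10 genes of the 23983 in the FPKM table, taken by their symbols: the A-type cyclins Ccna1 and Ccna2, the B-type cyclins Ccnb1 and Ccnb2, the kinases Cdk1 and Cdk2, the phosphatase Cdc25c, and the kinases Plk1, Aurka and Aurkc. Membership rests on the symbol alone, but the set was chosen with earlier results of these data known. Total RNA came from a piece of unsorted testis, fresh or stored frozen, of wild-type C57BL/6J mice. They were aged d12, d16 or d24 or adult, the days counted from birth, with 1 strand-specific, paired-end library for each of the 4 groups. All groups share genotype and strain, none was treated, and the sources used here give neither the adult age nor the number of animals behind a library. Without a second library the variation between animals is unknown, and the stages could not be tested. A change is therefore called only where a level (FPKM, fragments per kilobase of transcript, scaled to library depth) differs by at least 2-fold between libraries, a rule that takes no account of variation between animals.

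A cyclin-dependent kinase is active only when bound to a cyclin. Entry into M phase is driven by Cdk1 with a B-type cyclin, is held back by inhibitory phosphates on Cdk1, and begins when Cdc25 phosphatases remove them, a step that the Polo-like kinase Plk1 promotes. Aurora kinases act at spindle poles and at chromosomes. In testis, spermatogonia use this machinery for mitosis, spermatocytes hold it through a long meiotic prophase and then pass both meiotic divisions, and spermatids no longer divide. In unsorted testis, fewer cells of a type and less RNA per cell cannot be told apart.

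For the depth, 1 fragment on a transcript of 1 kb was worth 0.0455 FPKM in the deepest library, d24, and 0.112 in the shallowest, adult. Intervals in parentheses are exact 95% intervals on the fragments behind a value and cover counting error only. Markers were read on lists of 6 genes for each cell type, and not all of them followed the labelled ages. The summed level of pachytene spermatocyte markers was 95.2 FPKM at d12, 1266 at d16, then 4500.4 at d24 and 5149 in adult testis. That of round spermatid markers was 5.08, 19.9, 641 and 1399 FPKM, and that of elongating spermatid markers 13.2, 4.45, 2363 and 26392 FPKM. Early meiotic markers summed to between 548 and 965 FPKM, Sertoli markers to between 461 and 792 FPKM, and Leydig markers to between 82.4 and 581 FPKM. Sycp3 alone made up most of the early meiotic sum, with 414 FPKM at d12, and Clu most of the Sertoli sum. Of the 6 early meiotic markers, 2 rose and 2 fell by at least 2-fold from d12 to adult, where 35.7% of all genes rose and 23.1% fell. The FPKM sum itself ran from 283580 at d12 to 659202 in adult testis, so the scaling between libraries matters. Setting the sums equal would multiply every fold by 0.921 from d12 to d16, by 0.651 from d16 to d24, by 0.717 from d24 to adult and by 0.430 from d12 to adult, and would move the median log2 change of all genes over that last span from 0.20 to -0.995. Upper quartile scaling would multiply the d12 to adult folds by 0.633, and division by Gapdh by 3.44, with Gapdh itself at 68.9 FPKM at d12 and 20.04 in adult testis. Scaling by the median ratio of all genes left every fold almost as deposited, with a factor of 1.01 from d12 to adult.

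Most of the set rose late, between d16 and d24, and then stayed within 2-fold. From d16 to d24, 6 of the 10 members rose by at least 2-fold and none fell, against 27.5% higher and 8.45% lower among the 13901 genes whose mean was at least 1 FPKM over the libraries, a filter that all 10 members passed. The 6 were Ccna1, Ccnb1, Ccnb2, Plk1, Aurka and Aurkc, and the median log2 change of the 10 members was 1.44, beside 0.13 for all genes. With FPKM sums set equal, or with upper quartile scaling, 5 members were higher and 1, Ccna2, was lower, and after division by Gapdh 9 were higher and none lower. The median log2 change of all genes in this step was then -0.48, -0.15 and 1.27, in that order of scalings. The share of all genes past 2-fold was counted on the deposited scale only. From d24 to adult no member rose or fell by 2-fold, while 11.4% of all genes rose and 2.2% fell.

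The earlier step was smaller. From d12 to d16, 3 of the 10 members rose, Ccna1, Aurka and Aurkc, and none fell, beside 12.6% of all genes higher and 3.67% lower. After division by Gapdh 5 were higher, with Ccnb2 at 3.07 and Cdk1 at 2.45 added, and the median log2 change of all genes was 0.63. On the deposited scale the median log2 change was 0.38 for the members and 0 for all genes. Over the whole span from d12 to adult, 6 rose (Ccna1, Ccnb2, Cdc25c, Plk1, Aurka and Aurkc) and 1 fell (Ccna2), at medians of 1.59 for the members and 0.20 for all genes. Among all genes, 35.7% rose and 23.1% fell over that span. The folds of the members that rose were 249.6 (97.6 to 924) for Ccna1, 14.6 (9.63 to 24.3) for Aurkc, 9.25 (8.23 to 10.4) for Aurka, 6.25 (5.40 to 7.25) for Ccnb2, 3.57 (3.04 to 4.20) for Plk1 and 2.64 (1.94 to 3.61) for Cdc25c. With equal FPKM sums 4 members rose and 2, Ccna2 and Cdk2, fell, since Plk1 and Cdc25c came to 1.53 and 1.14, and after division by Gapdh 9 rose and none fell. All genes had a median log2 change of -0.995 with equal FPKM sums and of 1.95 with Gapdh over that span.

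**Figure D1:**
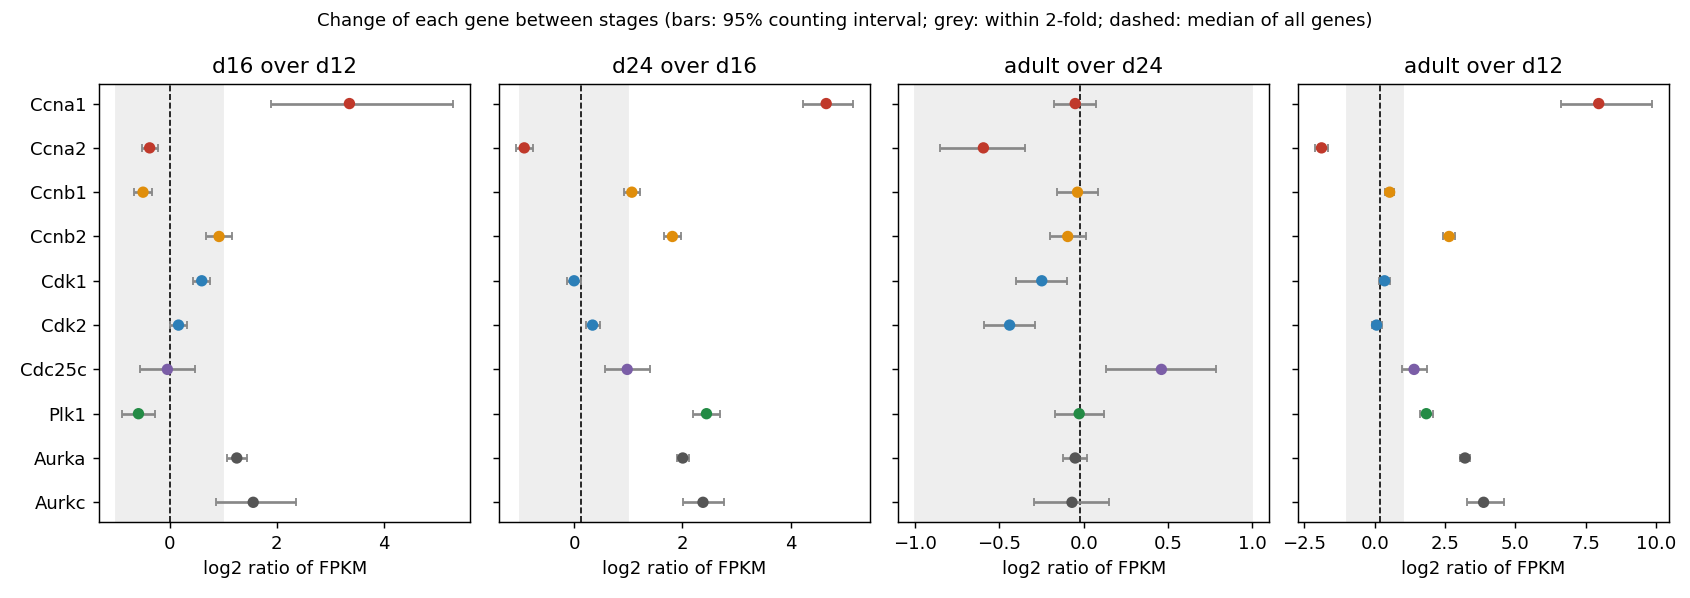
Log2 ratio of FPKM between a pair of libraries (x axis) for each of the 10 members (y axis), in 4 panels for d12 to d16, d16 to d24, d24 to adult and d12 to adult, where points are single folds, bars are 95% counting intervals, the grey band is the range within 2-fold and the dashed line is the median of all tested genes. In the d16 to d24 panel 6 points lie right of the band, led by Ccna1 at a fold of 25.2, while the d24 to adult panel holds every member inside it, at folds between 0.662 and 1.38.

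The A-type cyclins exchanged places. Ccna1, the cyclin A of the male germ line and known to be needed for spermatocytes to enter the divisions, lies on chromosome 3 (55045469 to 55055055, minus strand, 9 exons) of GRCm38. It had 0.204 FPKM (0.0552 to 0.519) at d12, 2.09 (1.49 to 2.82) at d16, then 52.7 (50.3 to 55.2) at d24 and 50.9 (47.2 to 54.8) in adult testis. The d12 value rests on 4 fragments and the d24 value on 1825. It was near the detection limit at d12, low at d16, and at d24 and in adult testis at levels whose intervals overlap. Ccna1 rose 10.3-fold (3.72 to 39.5) from d12 to d16 and a further 25.2-fold (18.6 to 35.4) to d24. In the ranking of all listed genes it moved from above 36.3% of them at d12 to above 91.7% at d24. That ranking includes genes at 0: of 23983 listed, 17614 were above 0 at d12 and 19581 at d24.

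Ccna2, the cyclin of S phase and mitotic entry in dividing cells, lies on chromosome 3 (36564865 to 36573038, minus strand, 9 exons) and overlaps Exosc9 on the other strand, which a strand-specific library can tell apart. Its level was 20.7 FPKM (19.3 to 22.1) at d12, 15.96 (14.8 to 17.2) at d16, then 8.44 (7.79 to 9.13) at d24 and 5.59 (4.77 to 6.49) in adult testis. Each library was lower than the one before it, and neighbouring intervals did not overlap. No single step reached 2-fold, with folds of 0.772, 0.528 and 0.662, but over the whole span Ccna2 fell to 0.270 (0.227 to 0.319) of its d12 level. Equal FPKM sums gave 0.116 for that fold and division by Gapdh 0.929, and with Gapdh the d12 to d16 and d16 to d24 folds turned above 1, at 1.25 and 1.18. The summed level of spermatogonial markers was 289 FPKM at d12, 169 at d16, then 86.8 at d24 and 62.1 in adult testis, and none was at 0 in any library. From d12 to adult 5 of these 6 fell by at least 2-fold, and the sixth, Gfra1, went from 1.1997 to 2.41 FPKM. Sertoli markers summed to 792 FPKM at d12 and 492 in adult testis, where Amh was at 0, and 4 of 6 fell over that span. Clu made up 707 and 457 FPKM of these sums. Among all genes 23.1% fell from d12 to adult, and the marker counts were made on the deposited scale only. The part of either cell type in the fall of Ccna2 was not tested.

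A ratio of members within a library does not depend on the scaling between libraries. The Ccna1 to Ccna2 ratio of FPKM was 0.00986 (0.00267 to 0.0252) at d12, 0.131 (0.0927 to 0.179) at d16, then 6.25 (5.70 to 6.85) at d24 and 9.12 (7.70 to 10.9) in adult testis. Ccna2 was the more abundant A-type cyclin at d12 and d16, and Ccna1 at d24 and in adult testis. As a share of the summed FPKM of both, Ccna1 made up 0.977% at d12, 11.6% at d16, then 86.2% at d24 and 90.1% in adult testis.

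**Figure D2:**
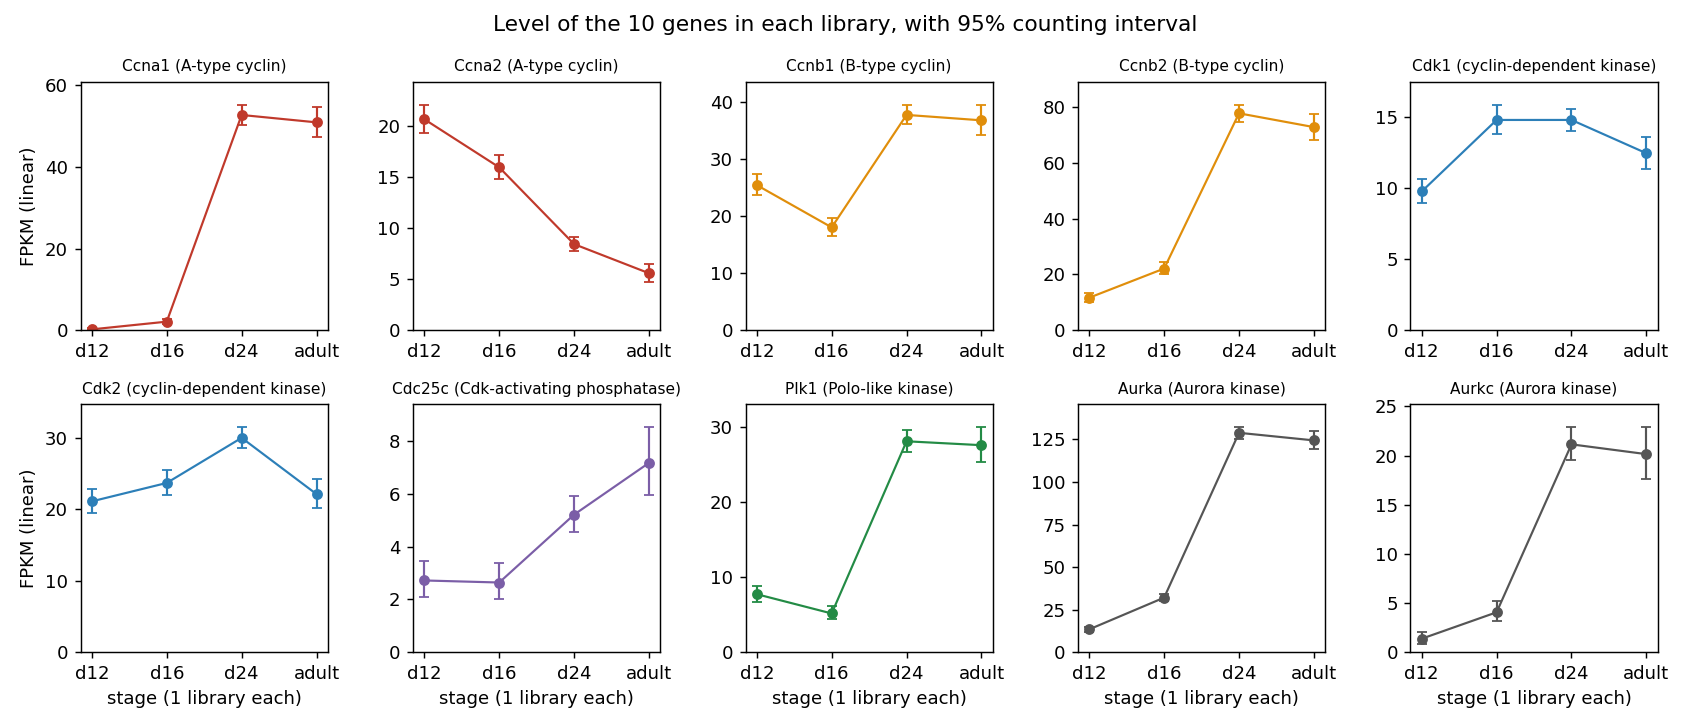
FPKM (y axis, linear and from 0, with its own range in each panel) at d12, d16, d24 and adult (x axis) for each of the 10 members, 1 panel per gene, with 1 point per library joined by lines and bars for the exact 95% counting interval. Ccna1 climbs from 0.204 to 50.9 FPKM and Ccna2 declines from 20.7 to 5.59, whereas Cdk1 and Cdk2 span 1.52-fold and 1.42-fold on this deposited scale.

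Of the B-type cyclins, which activate Cdk1, Ccnb2 rose more than Ccnb1. Ccnb1, on chromosome 13 (100778739 to 100786486, minus strand, 9 exons), had 25.4 FPKM (23.6 to 27.3) at d12, 18.0 (16.5 to 19.6) at d16, then 37.8 (36.1 to 39.5) at d24 and 36.8 (34.2 to 39.5) in adult testis. Its d16 library was the lowest, and d24 and adult overlapped at the highest level. The d12 to d16 fold was 0.709 (0.632 to 0.794) and became 1.15 after division by Gapdh. Ccnb1 rose 2.09-fold (1.90 to 2.31) from d16 to d24, just past the limit, and with equal FPKM sums this fold was 1.36 and no longer past it. From d12 to adult the fold was 1.45 (1.31 to 1.60), and it was below 1 with equal FPKM sums (0.622) and with upper quartile scaling (0.915). Of the Ccnb1 transcript, 64.2% has a copy elsewhere in the genome that is at least 98% identical over at least 50 bases, with the longest such matches in Ccnb1-ps, a transcribed pseudogene on chromosome 7, and Gm12856, a pseudogene on chromosome 4. Neither has a value in the table, and how the authors' mapping divided reads among these copies was not tested.

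Ccnb2 lies on chromosome 9 (70407689 to 70421554, minus strand, 9 exons) and has no such copy. Its level was 11.7 FPKM (10.2 to 13.3) at d12, 22.1 (20.1 to 24.3) at d16, then 77.8 (74.9 to 80.8) at d24 and 72.8 (68.4 to 77.5) in adult testis. The fold from d12 to d16 was 1.90 (1.61 to 2.24), short of the limit, and from d16 to d24 Ccnb2 rose 3.52-fold (3.17 to 3.91). The Ccnb1 to Ccnb2 ratio was 2.18 (1.88 to 2.55) at d12, 0.815 (0.716 to 0.929) at d16, then 0.485 (0.457 to 0.515) at d24 and 0.505 (0.459 to 0.556) in adult testis. Per length, Ccnb1 was the more abundant B-type cyclin at d12 and Ccnb2 in the 3 later libraries, while in fragments, without the correction for length, the d16 ratio was 1.23. The 4 cyclins together summed to 58.0 FPKM at d12, 58.2 at d16, then 177 at d24 and 166 in adult testis. Within that sum the share of Ccnb2 was 20.1% at d12 and 43.8% in adult testis.

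On the deposited scale the cyclin-dependent kinases spanned the narrowest range, and this depends on the scaling. Cdk1, the M phase kinase, on chromosome 10 (69335146 to 69352912, minus strand, 8 exons), had 9.74 FPKM (8.94 to 10.6) at d12, 14.8 (13.8 to 15.8) at d16, then 14.8 (14.01 to 15.6) at d24 and 12.4 (11.3 to 13.6) in adult testis. Cdk2, which in spermatocytes sits at telomeres and crossover sites during prophase, lies on chromosome 10 (128697939 to 128705051, minus strand, 8 exons) and had 21.1 (19.5 to 22.8), 23.7 (21.9 to 25.5), 30.0 (28.5 to 31.5) and 22.1 FPKM (20.1 to 24.2) in the same order. Neither passed 2-fold in any step as deposited, and the highest library exceeded the lowest 1.52-fold for Cdk1 and 1.42-fold for Cdk2. With equal FPKM sums these spans were 2.54 and 2.29, wider than those of Cdc25c at 1.29 and Ccnb1 at 1.61, and after division by Gapdh they were 5.47 and 5.12, wider than that of Ccna2 at 1.58. From d12 to adult the folds were 1.28 (1.12 to 1.44) for Cdk1 and 1.05 (0.928 to 1.18) for Cdk2. With equal FPKM sums both were below 1, at 0.549 and 0.451, and with upper quartile scaling too, at 0.807 and 0.663. After division by Gapdh they were 4.39 and 3.60, and Cdk1 passed 2-fold in both steps up to d24 (2.45 and 2.23) and Cdk2 from d16 to d24 (2.83). The Cdk1 to Cdk2 ratio was 0.462 (0.411 to 0.520) at d12, 0.624 (0.563 to 0.692) at d16, then 0.493 (0.458 to 0.530) at d24 and 0.562 (0.494 to 0.640) in adult testis. The ratio of Ccnb1 to its partner Cdk1 was 2.61 (2.33 to 2.92) at d12, 1.22 (1.09 to 1.36) at d16, then 2.56 (2.39 to 2.74) at d24 and 2.96 (2.64 to 3.33) in adult testis, lowest at d16.

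Cdc25c, which removes the inhibitory phosphates from Cdk1, is encoded on chromosome 18 and was the scarcest or next to scarcest member at every stage but d12. Its level was 2.72 FPKM (2.096 to 3.45) at d12, 2.64 (2.03 to 3.36) at d16, then 5.21 (4.53 to 5.93) at d24 and 7.16 (5.95 to 8.52) in adult testis. The first 2 libraries overlapped, d24 was higher, and adult was the highest of all. The d16 to d24 fold was 1.97 (1.49 to 2.65) and missed the limit, and from d12 to adult Cdc25c rose 2.64-fold (1.94 to 3.61), or 1.14-fold with equal FPKM sums. It was the only member whose d24 to adult fold had an interval above 1, at 1.38 (1.096 to 1.72), and with equal FPKM sums that fold was 0.987.

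Plk1, the Polo-like kinase of centrosomes and kinetochores, lies on chromosome 7 (122159435 to 122169884, plus strand, 10 exons). It had 7.72 FPKM (6.72 to 8.82) at d12, 5.16 (4.35 to 6.09) at d16, then 28.1 (26.6 to 29.6) at d24 and 27.5 (25.3 to 30.0) in adult testis. As for Ccnb1, the lowest library was d16, and d24 and adult overlapped. The d12 to d16 fold was 0.668 (0.538 to 0.831), and 1.08 after division by Gapdh. Plk1 then rose 5.44-fold (4.57 to 6.498) to d24. Its pseudogene Plk-ps1 on chromosome 5 matches 2142 bases at 93.6% identity, below the 98% set for a near copy. The Cdc25c to Plk1 ratio was 0.352 (0.262 to 0.465) at d12, 0.512 (0.373 to 0.689) at d16, then 0.186 (0.160 to 0.213) at d24 and 0.260 (0.212 to 0.316) in adult testis, so the kinase exceeded the phosphatase per length in every library.

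The Aurora kinases were the members that rose in both juvenile steps beside Ccna1. Aurka, which builds the spindle poles, lies on chromosome 2 (172356190 to 172370570, minus strand, 9 exons) and had 13.4 FPKM (12.03 to 14.99) at d12, 32.1 (29.8 to 34.4) at d16, then 129 (125 to 132) at d24 and 124 (119 to 129.8) in adult testis. It was the most abundant member from d16 on, above 97.1% of all listed genes at d24. Aurka rose 2.39-fold (2.09 to 2.72) to d16 and 4.02-fold (3.73 to 4.34) from there to d24.

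Aurkc, the germ cell Aurora kinase of the chromosomal passenger complex, lies on chromosome 7 (6995385 to 7003091, plus strand, 7 exons). Its level was 1.38 FPKM (0.846 to 2.04) at d12, from 22 fragments, 4.06 (3.14 to 5.16) at d16, then 21.1 (19.5 to 22.9) at d24 and 20.1 (17.7 to 22.9) in adult testis. It rose 2.95-fold (1.83 to 5.12) and then 5.20-fold (4.04 to 6.83), and all 4 Aurora steps up to d24 stayed past 2-fold with equal FPKM sums, at 2.197 and 2.62 for Aurka and 2.72 and 3.39 for Aurkc. A copy of 68.8% of the Aurkc transcript at 98% identity or more lies in the pseudogene Gm12463 on chromosome 4, which has no value in the table. The Aurkc to Aurka ratio was 0.102 (0.0620 to 0.155) at d12, 0.127 (0.0968 to 0.163) at d16, then 0.164 (0.151 to 0.179) at d24 and 0.162 (0.141 to 0.185) in adult testis, far below 1 throughout, with the d12 interval overlapping that of adult testis. The third Aurora gene, Aurkb, of mitotic chromosomes, is no member and passed no 2-fold limit, at 5.51 FPKM at d12, 3.97 at d16, then 6.79 at d24 and 5.04 in adult testis.

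**Figure D3:**
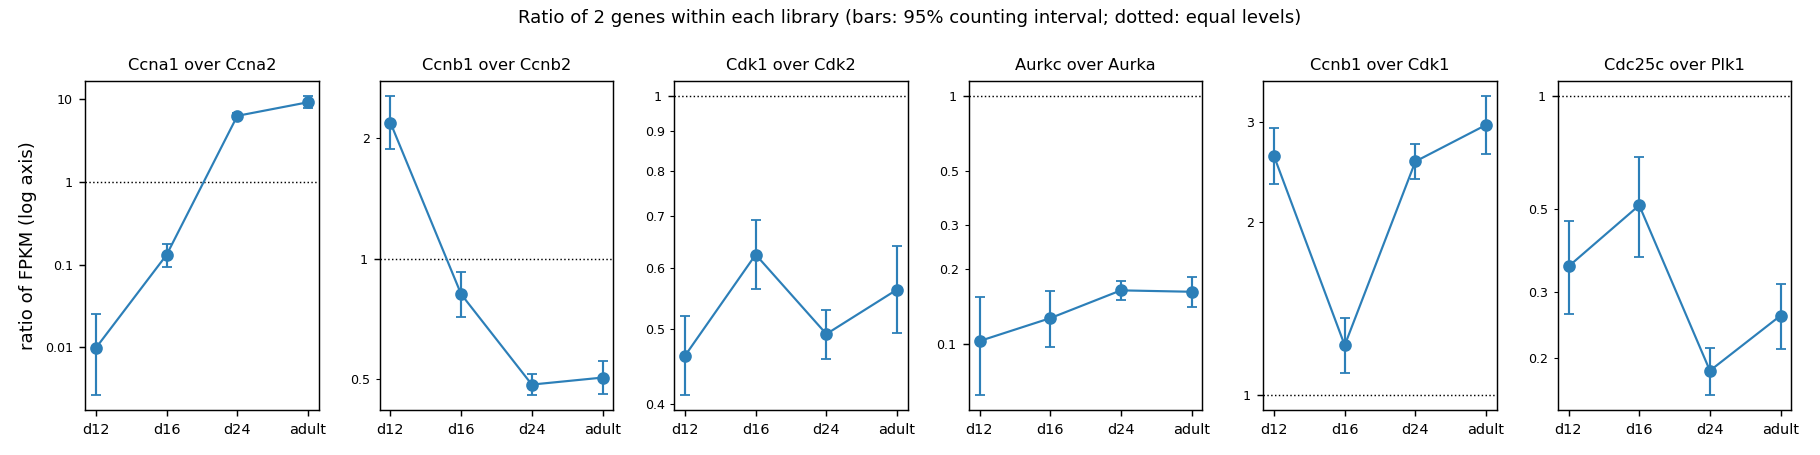
Ratio of FPKM of 2 members in the same library (y axis, log scale) at d12, d16, d24 and adult (x axis), 1 panel per pair, with bars for the 95% counting interval and a dotted line at 1. Of the 6 pairs, the Ccna1 to Ccna2 ratio crosses 1 upward between d16 and d24 and the Ccnb1 to Ccnb2 ratio crosses it downward between d12 and d16, while the other panels keep to one side of the line.

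The order of the members within a library changed as well, here per length on the FPKM scale. At d12 Ccnb1 led, followed by Cdk2 and Ccna2, which did not differ beyond counting error, then by Aurka and Ccnb2, likewise not apart, and by Cdk1, Plk1, Cdc25c, Aurkc and Ccna1. At d16 the order ran Aurka, Cdk2, Ccnb2, Ccnb1, Ccna2, Cdk1, Plk1, Aurkc, Cdc25c and Ccna1, and the neighbours Cdk2 and Ccnb2, Ccna2 and Cdk1, Plk1 and Aurkc, and Cdc25c and Ccna1 were not apart. At d24 it ran Aurka, Ccnb2, Ccna1, Ccnb1, Cdk2, Plk1, Aurkc, Cdk1, Ccna2 and Cdc25c, with only Cdk2 and Plk1 not apart. Adult testis kept the first 4 places, and Ccna2 stood last. The interval of a neighbour's ratio there included 1 only for Cdk2 and Aurkc.

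The cell type markers moved in the same steps as follows. The 6 pachytene markers all rose by at least 2-fold from d12 to d16 and 5 of 6 rose again to d24, none of them at 0 in any library. Among all genes 12.6% and 27.5% rose in these steps. The 6 elongating spermatid markers all rose from d24 to adult, with a median log2 change of 3.00, over the step in which no member passed the limit. In that step 11.4% of all genes rose. The summed level of round spermatid markers went from 19.9 FPKM at d16 to 641 at d24, the step in which 6 members rose, and 3 of the 6 were listed at 0 at d16. The part of any of these cell types in the members' levels was not tested.

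Among the members themselves the closest profiles were those of Cdk1 and Cdk2, at a distance of 0.33 between their centred log2 values over the 4 libraries, of Ccnb2 and Aurka, at 0.45, and of Aurka and Aurkc, at 0.49. Many other tested genes were nearer still. For Cdk1, 453 genes lay nearer than Cdk2, and for Cdk2, 675 lay nearer than Cdk1. These counts were 235 and 168 for Ccnb2 and Aurka, and 211 and 107 for Aurka and Aurkc. Ccna1 had no near neighbour in the set, with Aurkc closest at 3.08. Over all tested genes, those nearest to Ccna1 were 1700001J11Rik (0.25), Pdzd9 (0.36) and 4930474M22Rik (0.45). Nearest to Ccna2 were Atp7a (0.02), Zfp275 (0.02) and Clspn (0.04), and nearest to Aurka were Dynlt1b (0.08), Zfp541 (0.08) and Flywch1 (0.09). Under the other measure of likeness, on profiles scaled to the highest stage, none of the 3 genes named for Ccna1 was among its nearest, all 3 of those for Ccna2 were, and 2 of those for Aurka were, all but Dynlt1b. For the other 7 members the 3 nearest genes lay at distances between 0.03 and 0.21. With 4 libraries and 13901 genes, such distances are a description only.

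The wider network around the members was read from 8 lists of 80 genes, of which 79 are in the table and 78 passed the filter on low values. From d12 to d16, 7 of the 78 rose, or 8.97%, beside 12.6% of all genes, and 1 fell. From d16 to d24, 16 rose, or 20.5%, beside 27.5%, and 6 fell, or 7.69%, beside 8.45%. These shares are no larger than those of all genes. From d24 to adult none rose and 1 fell, while 11.4% of all genes rose and 2.2% fell. The median log2 change from d16 to d24 was 0.28, beside 0.13 for all genes. These counts depend on the scaling: from d12 to d16, 23 were higher after division by Gapdh, and from d16 to d24 equal FPKM sums gave 3 higher and 21 lower, upper quartile scaling 9 and 15, and division by Gapdh 50 and none. From d12 to adult 24 rose and 18 fell (30.8% and 23.1%, beside 35.7% and 23.1% of all genes), against 6 and 37 with equal FPKM sums, 14 and 26 with upper quartile scaling, and 56 and 1 after division by Gapdh. All genes shift with the scaling too. Their median log2 change with Gapdh was 0.63 from d12 to d16, 1.27 from d16 to d24 and 1.95 from d12 to adult. With equal FPKM sums it was -0.48 from d16 to d24 and -0.995 from d12 to adult.

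Of 11 other regulators of M phase entry, 3 rose from d12 to d16, or 27.3% beside 12.6% of all genes. Nek2, a centrosome kinase, rose from 19.4 to 62.0 FPKM and on to 161 at d24. Cks2, a small subunit that binds Cdk1 and Cdk2, rose from 20.3 to 61.9 FPKM. Pkmyt1, which places inhibitory phosphates on Cdk1, rose from 0.352 to 2.39 FPKM, whereas Wee1, a kinase of the same function, passed no limit, at 10.2 FPKM at d12, 9.66 at d16, then 13.02 at d24 and 15.4 in adult testis. From d16 to d24, Nek2 and Bora, the cofactor with which Aurka activates Plk1, rose, Bora from 7.71 to 17.0 FPKM. Ccnb3, a cyclin of early meiotic prophase, fell in that step from 11.03 to 4.89 FPKM. The 2 rises and 1 fall are 18.2% and 9.09%, beside 27.5% and 8.45% of all genes. No gene of this list passed the limit from d24 to adult, while 11.4% of all genes rose and 2.2% fell. From d12 to adult 5 rose and 3 fell (45.5% and 27.3%, beside 35.7% and 23.1% of all genes). The 3 rises from d12 to d16 were kept under every scaling. From d16 to d24 equal FPKM sums left none higher and 3 lower, and Gapdh gave 7 higher and none lower.

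Among 7 partners of Cdk2 and inhibitors of cyclin-dependent kinases, 2 rose from d12 to d16 and 3 from d16 to d24, and none fell in either step. The rises are 28.6% and 42.9%, beside 12.6% and 27.5% of all genes, of which 3.67% and 8.45% fell. Spdya, the activator that brings Cdk2 to telomeres, rose from 9.18 to 27.7 FPKM and to 62.6 at d24, while Cdk2 itself did not pass the limit. Cdkn2c and Cdkn2d, inhibitors of the G1 kinases, stood at 56.9 and 37.6 FPKM in adult testis, from 7.48 and 10.6 at d12. Of 5 G1 cyclins and kinases, Ccnd1 and Ccnd2 fell and Ccnd3 rose from d16 to d24, with Ccnd3 going from 2.67 to 10.2 FPKM and Ccnd2 from 4.77 to 2.24 FPKM. Among all genes 27.5% rose and 8.45% fell in that step. Of 8 tested Aurora and Polo partners, 1 rose from d16 to d24, Birc5, a subunit of the chromosomal passenger complex, from 36.1 to 108 FPKM. Of 6 spindle checkpoint genes, the kinase gene Ttk alone rose in that step, from 19.6 to 42.2 FPKM. The shares that rose in the Aurora and Polo list and the checkpoint list, 12.5% and 16.7%, were below the 27.5% of all genes. With equal FPKM sums Spdya, Cdkn2c, Cdkn2d, Birc5 and Ttk all came within 2-fold from d16 to d24 and Ccnd3 remained past it, and after division by Gapdh neither Ccnd1 nor Ccnd2 was past it.

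Of 20 genes for the anaphase-promoting complex (APC/C), the ubiquitin ligase that ends M phase, and for its inhibitors and targets, 7 rose from d16 to d24 and none fell, or 35.0% higher beside 27.5% of all genes. Among all genes 8.45% fell in that step. With equal FPKM sums 1 of the 7 remained, Fzr1, and 4 other genes of the list were lower. With upper quartile scaling 4 were higher and 1 lower, and after division by Gapdh 14 were higher and none lower. The APC/C activators Cdc20 and Fzr1 went from 29.0 to 58.3 FPKM and from 4.76 to 17.1 FPKM. Its target securin, encoded by Pttg1, went from 26.2 to 68.6 FPKM, and separase, encoded by Espl1, from 5.78 to 17.2 FPKM. The APC/C inhibitors moved in opposite directions: Fbxo43, known from meiosis, rose from 0.732 to 5.85 FPKM and stood at 15.6 at d24, while Fbxo5, known from mitosis, fell from 6.72 to 3.10 FPKM and had 1.06 in adult testis. After division by Gapdh no gene of the 8 lists was lower from d12 to d16, so the fall of Fbxo5 is lost there.

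Of 12 factors known to drive transcription of M phase genes, none fell in any step on the deposited scale. Among all genes 3.67% fell from d12 to d16, 8.45% from d16 to d24 and 2.2% from d24 to adult. Mybl1, the MYB factor of pachytene spermatocytes, rose from 17.4 to 37.6 FPKM from d12 to d16, and Foxm1 from 3.5004 to 15.2 FPKM from d16 to d24. Each alone passed the limit in its step, or 8.33% of the list beside 12.6% and 27.5% of all genes. The rise of Foxm1 was kept under every scaling, and that of Mybl1 was within 2-fold with equal FPKM sums and with upper quartile scaling. From d16 to d24 equal FPKM sums left 3 of the 12 lower. Mybl2, the MYB factor of mitotic cells, stayed within 2-fold, at 3.99 FPKM at d12, 2.64 at d16, then 4.34 at d24 and 3.76 in adult testis. Of 9 proliferation genes, none rose in any step on the deposited scale, beside 12.6%, 27.5% and 11.4% of all genes in the order of the steps. From d16 to d24, 3 of the 9 fell, and from d12 to adult 6. The falls are 33.3% and 66.7%, beside 8.45% and 23.1% of all genes. These 6 were Mki67, Mcm2, Mcm3, Mcm4, Mcm5 and Mcm6, with Mcm2, a subunit of the replicative helicase, going from 28.9 to 5.16 FPKM. After division by Gapdh none of the 9 was lower over that span and 3 were higher. Mcm7 was at 47.2 FPKM at d12, 55.0 at d16, then 88.9 at d24 and 74.5 in adult testis.

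**Figure D4:**
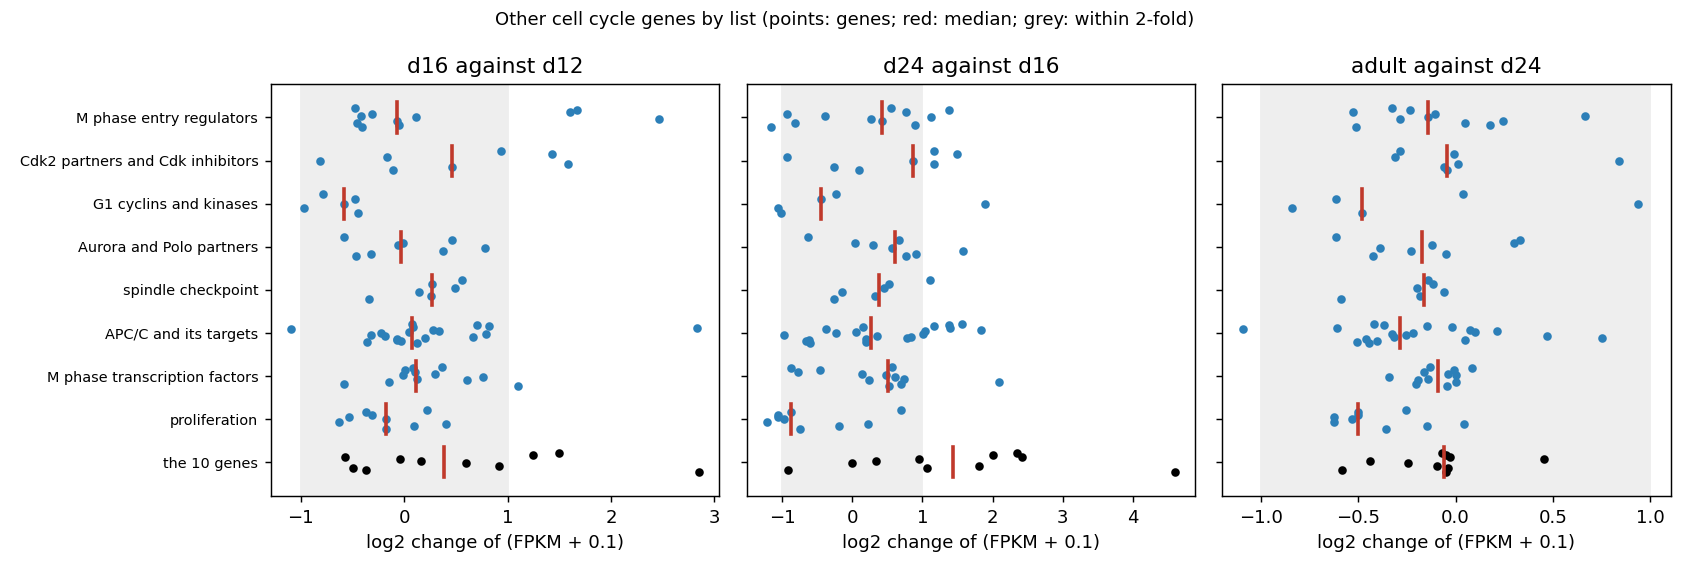
Log2 change of FPKM + 0.1 (x axis) of each tested gene of the 8 pathway lists and of the members (y axis, members in the lowest row), in panels for d12 to d16, d16 to d24 and d24 to adult, where points are genes, red bars are list medians and the grey band is the range within 2-fold. The members' median lies at 1.44 in the d16 to d24 panel, and that of the proliferation genes at -0.87.

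The promoters of the members were searched for the letters that cell cycle promoters are known to carry. RefSeq promoter sequences on GRCm38.p6, from 250 bases before to 50 after the start, were at hand for 8 of the 10 members, all but Ccna2 and Cdc25c, and for 32851 promoters in all. The letters TTTGAA, which form the core of the cell cycle homology region (CHR) bound by the MuvB complex, occurred on either strand in 4 of the 8, Ccnb2, Cdk1, Plk1 and Aurka, and in 17.9% of all promoters. CCAAT, the box bound by NF-Y, occurred in 8 of 8 and in 37.4% of all. Both together occurred in 4 of 8 and in 6.95% of all. The MYB letters AACNG were in 7 of 8, but also in 80.3% of all promoters, the letters TGACG of the cyclic AMP response element in 2 of 8 and 20.8% of all, and TATAAA in none of 8 and 13.6% of all. TTTGAA and CCAAT matches did not overlap each other, and in Cdk1 an AACNG match shares a base with the TTTGAA match nearer the start. A match is a description of letters and not a site of binding.

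The promoter sequences run 5′ to 3′ on the gene's own strand and show how the promoters of members with different profiles differ in these letters: the late cyclin Ccna1, the B-type cyclins, Cdk1, which did not pass 2-fold as deposited, and Plk1 and Aurka, which did. Each longer run holds the 120 bases before the start, and each shorter run the bases around a TTTGAA match after it. Capitals mark TTTGAA and CCAAT on either strand, and CCAAT on the other strand reads ATTGG.
Ccna1, chr3:55055056-55055175, minus strand: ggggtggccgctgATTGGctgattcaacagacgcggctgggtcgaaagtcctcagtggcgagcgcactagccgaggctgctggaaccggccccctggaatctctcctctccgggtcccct
Ccnb1, chr13:100786487-100786606, minus strand: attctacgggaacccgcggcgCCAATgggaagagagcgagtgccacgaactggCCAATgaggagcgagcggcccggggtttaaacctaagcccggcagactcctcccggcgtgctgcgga
Ccnb2, chr9:70421555-70421674, minus strand: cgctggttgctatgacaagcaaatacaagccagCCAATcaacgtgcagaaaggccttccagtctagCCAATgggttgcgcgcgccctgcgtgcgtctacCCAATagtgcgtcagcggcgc
Ccnb2, chr9:70421536-70421554, minus strand: ggtaTTTGAAtcgcggacc
Cdk1, chr10:69352913-69353032, minus strand: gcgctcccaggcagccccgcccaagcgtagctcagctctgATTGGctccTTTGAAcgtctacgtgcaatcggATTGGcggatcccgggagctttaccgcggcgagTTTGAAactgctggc
Plk1, chr7:122159315-122159434, plus strand: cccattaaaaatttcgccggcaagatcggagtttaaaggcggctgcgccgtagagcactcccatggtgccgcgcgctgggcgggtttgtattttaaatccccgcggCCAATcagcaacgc
Plk1, chr7:122159456-122159479, plus strand: agcgccgcgTTTGAAttcggggag
Aurka, chr2:172370571-172370690, minus strand: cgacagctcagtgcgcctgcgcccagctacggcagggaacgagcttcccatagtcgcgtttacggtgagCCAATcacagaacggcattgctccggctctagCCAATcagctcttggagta
Aurka, chr2:172370524-172370547, minus strand: aggagaaccTTTGAAttgtaacgg

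Counted from the start, with the first base of the match on the gene's strand, TTTGAA lay at -167 and 5 in Ccnb2, at -71 and -15 in Cdk1, at 31 in Plk1 and at 33 in Aurka. CCAAT lay at -87, -54 and -21 in Ccnb2, at -208, -80 and -48 in Cdk1, at -99 and -67 in Ccnb1, at -51 and -19 in Aurka, at -14 in Plk1 and at -45 in Cdk2. Ccna1 and Aurkc, which rose most from d12 to adult, had 1 CCAAT each, at -107 and at 25, and no TTTGAA. Of the 4 members with both kinds of letters, Ccnb2, Plk1 and Aurka passed 2-fold from d16 to d24 on the deposited scale and Cdk1 did not. Within 50 bases of the start on either side, TTTGAA occurred in 4 of 8 members and in 4.94% of all promoters.

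**Figure D5:**
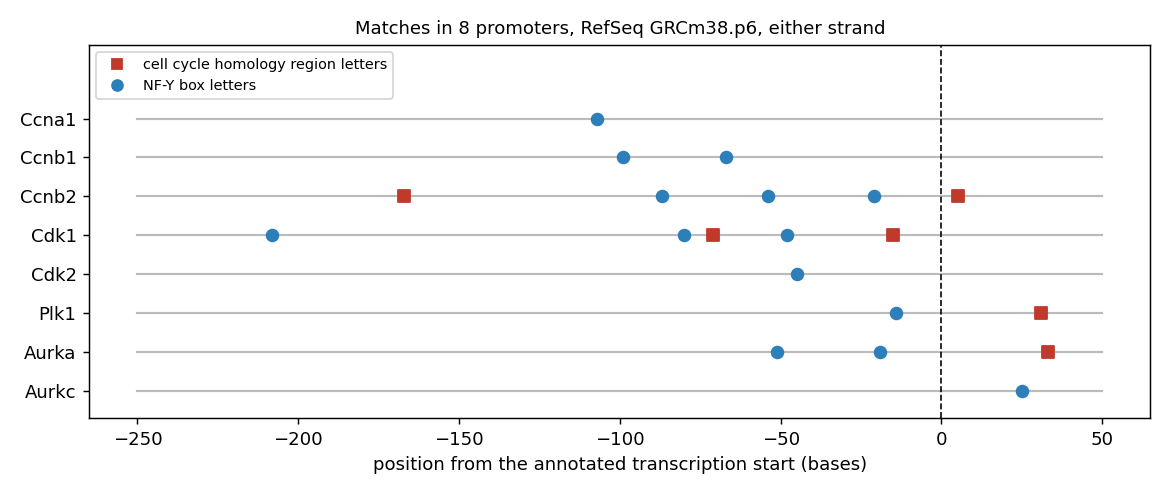
Position of letter matches relative to the annotated start of transcription (x axis, bases, from 250 before to 50 after) in the promoters of the 8 members with a sequence (y axis). Red squares are TTTGAA matches and blue circles CCAAT matches on either strand, and the dashed line is the start, with squares in 4 rows and circles in all 8.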

How the data were processed

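Total RNA of a testis piece, per the methods either fresh or stored frozen, was sequenced as strand-specific libraries of paired 50-base reads. Per the labels and the methods of the study, the authors used TopHat2 2.1.0 over Bowtie 1.1.2 to map reads to GRCm38/mm10, keeping 1 alignment per read, and computed the deposited FPKM values for RefSeq genes in Cuffdiff (Cufflinks 2.2.1), with correction for multi-reads and sequence bias and without effective length correction. The scaling between libraries inside Cuffdiff is not given in the sources used here. With 1 alignment kept per read, a read that matches a gene and its near copy equally is counted at only 1 of them. What this did to the members' levels was not tested.

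Folds are ratios of deposited FPKM values. Calls used log2(FPKM + 0.1), which understates the change of low genes, a limit of 2-fold, and genes whose mean was at least 1 FPKM. Fragments were recovered by dividing each FPKM value by what 1 fragment is worth on the mean curated transcript length. Over 14603 genes with 1 curated transcript, between 91.8% and 92.6% of values of up to 20 fragments lay within 0.05 of a whole number. The 95% intervals are exact Poisson for levels and Clopper-Pearson for ratios. Values listed at 0 were kept at 0. For scale, 3 fragments on a transcript of 1 kb were worth 0.336 FPKM in the adult library. For members with several curated transcripts, and where annotation lengths differ, fragments are approximate. A count model was not run, as no stage has a second library. Scripts used scipy 1.17.1, pandas 2.3.3 and numpy 2.4.6 under python 3.11.15, with near copies from blastn 2.17.0, and were tested on simulated data.

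Named are the members, the genes of each pathway list with the largest changes and some fixed regulators, the 3 genes most like a member, the markers and Gapdh. Members and lists were chosen with earlier results of these data known. Alternatives were 4 scalings, 2 pseudocounts, 2 other folds, 2 filters, an added counting interval, the longest transcript and another measure of likeness. The 4 H3K27Ac ChIP-seq samples were not analysed here.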

Additional observations from a re-analysis of the deposited data

How the results depend on the processing

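No paired analysis was possible because each stage has 1 library, and for the same reason no library could be left out. No member's called fold changed direction under any alternative. Folds within 2-fold are left out of that statement, and some of them turned, as given above for Ccna2, Ccnb1, Cdk1 and Cdk2. Of 240 member folds recomputed under the alternatives, 84 lay outside the counting interval of the deposited fold. The cause of these and the changes below was not tested beyond what the settings themselves do. Of the 10 members, the number higher from d12 to d16 was 3, and 5 after division by Gapdh, 5 at a limit of 1.5-fold and 1 at 3-fold. The number lower was 0 from d16 to d24, and 1 with equal FPKM sums, with upper quartile scaling or at 1.5-fold. From d24 to adult it was 0, and 1 with equal FPKM sums or at 1.5-fold. From d12 to adult it was 1, and 2 with equal FPKM sums and 0 after division by Gapdh. Both other pseudocounts, both other filters and the added counting interval moved no member count by over 1.5 times. Nor did median ratio scaling, but its factors lay between 0.997 and 1.01, so it could hardly move one.

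Of the 78 tested pathway genes, 7 were higher from d12 to d16, and 23 after division by Gapdh. The number lower was 1, and 2 with equal FPKM sums, upper quartile scaling or no filter, and 0 with Gapdh, a pseudocount of 1 or a mean of at least 5 FPKM. From d16 to d24, 16 were higher, and 3 with equal FPKM sums, 9 with upper quartile scaling and 50 with Gapdh, while 6 were lower, and 21, 15 and 0 under those settings and 3 with a pseudocount of 1. From d24 to adult, 1 was lower, and 10 with equal FPKM sums, 2 with upper quartile scaling, and 0 with a pseudocount of 1 or a mean of at least 5 FPKM. From d12 to adult, 24 were higher, and 6 with equal FPKM sums, 14 with upper quartile scaling and 56 with Gapdh, while 18 were lower, and 37 with equal FPKM sums and 1 with Gapdh. Of the 30 genes most like a member, 18 were shared with those by profiles scaled to the highest stage.

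Depth limits Ccna1 at d12 most, with 4 fragments, followed by Aurkc at d12 with 22 and Ccna1 at d16 with 41.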
